A study of Mus musculus with 32 samples.

Results

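The genes described here build, load and regulate the classical major histocompatibility complex (MHC) class I molecules. They are the heavy chains H2-K1 and H2-D1, the light chain B2m, the peptide transporter subunits Tap1 and Tap2, the loading chaperone Tapbp (tapasin), the class I transactivator Nlrc5 and the peptide trimming protease Erap1. Their probes were chosen by the gene name that the scanner files give, which returned 10 probes for 8 genes among 24082 named genes on the array. All 8 genes passed the filter on dim probes and belong to the 16033 genes tested, and the probe used for each gene was well above background on 32 of 32 arrays and saturated on none. RNA came from bone marrow-derived macrophages (BMDMs), cells grown from mouse marrow with M-CSF, of wild type (WT, C57BL/6) and Ifnar1-/- mice. IFNAR1 is one chain of the receptor for IFNβ and the other type I interferons. Each genotype was left untreated or received, for 6 h, LPS at 100 ng/mL, IFNβ at 1000 U/mL, the caspase inhibitor zVAD, LPS+zVAD, IFNβ+zVAD, LPS+zVAD with the RIPK1 inhibitor necrostatin-1 (Nec-1), or IFNβ+zVAD+Nec-1. Each of the 16 groups was measured on 2 one-colour arrays, 32 in all, and the labels do not say whether these came from separate mice, so p-values measure only the spread between such arrays. The doses of zVAD and Nec-1 and the ages of the mice are not given in the labels.

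A class I molecule is a heavy chain that binds B2m and a short peptide and carries that peptide to the cell surface for inspection by CD8+ T cells. Peptides made by the proteasome enter the endoplasmic reticulum through the TAP1-TAP2 transporter, are shortened by ERAP1 and are fitted into the groove with the help of tapasin. NLRC5 acts in the nucleus on class I promoters together with factors that bind the X and Y boxes, while interferons act on the same genes through STAT and IRF factors, and NF-κB acts on the enhancer upstream of the heavy chains.

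Promoters were available for 6 of the 8 genes (RefSeq, build GRCm38.p6), and 5 are printed here because the genes they belong to differed in their response. Each is the 250 bases before the gene's start, read in the direction of the gene, with matches to the searched letters in capitals. The searched motifs, on both strands, were GAAANNGAA (the core of an interferon-stimulated response element), TTCNNNGAA (a STAT site), the kappa-B consensus, CCAAT (the Y box) and TGACG (part of the X box). GAANNGAAA was added after the promoters had been read. The windows lie at chr17:34000348-34000597 (minus strand), chr17:35262844-35263093, chr2:122147437-122147686, chr17:34187306-34187555 and chr13:74639603-74639852 (plus strand).
H2-K1: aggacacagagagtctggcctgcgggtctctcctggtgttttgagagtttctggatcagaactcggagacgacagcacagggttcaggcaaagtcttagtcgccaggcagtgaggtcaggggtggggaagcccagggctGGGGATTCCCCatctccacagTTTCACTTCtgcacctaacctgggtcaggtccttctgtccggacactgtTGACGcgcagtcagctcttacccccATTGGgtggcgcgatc
H2-D1: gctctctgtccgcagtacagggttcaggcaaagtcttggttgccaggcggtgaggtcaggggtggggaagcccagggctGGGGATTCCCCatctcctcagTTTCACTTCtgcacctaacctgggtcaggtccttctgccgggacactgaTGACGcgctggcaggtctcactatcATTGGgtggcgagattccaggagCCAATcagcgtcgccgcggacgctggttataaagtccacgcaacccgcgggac
B2m: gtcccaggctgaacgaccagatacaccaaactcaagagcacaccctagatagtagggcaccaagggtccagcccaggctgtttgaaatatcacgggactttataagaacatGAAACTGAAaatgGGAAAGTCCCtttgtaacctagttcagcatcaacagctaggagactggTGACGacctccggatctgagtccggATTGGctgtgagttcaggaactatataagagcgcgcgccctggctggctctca
Tap1: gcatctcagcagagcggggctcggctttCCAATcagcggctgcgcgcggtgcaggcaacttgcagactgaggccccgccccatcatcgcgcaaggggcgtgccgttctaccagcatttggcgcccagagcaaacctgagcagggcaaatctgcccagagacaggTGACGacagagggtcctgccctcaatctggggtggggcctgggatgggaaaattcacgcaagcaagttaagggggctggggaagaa
Erap1: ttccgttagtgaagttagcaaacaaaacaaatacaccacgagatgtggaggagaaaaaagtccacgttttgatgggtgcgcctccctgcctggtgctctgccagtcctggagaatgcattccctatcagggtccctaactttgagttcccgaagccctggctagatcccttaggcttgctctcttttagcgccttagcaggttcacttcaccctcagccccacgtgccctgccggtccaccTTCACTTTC

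The H2-K1 and H2-D1 promoters were alike in sequence. Placed without gaps, they shared 166 of 190 bases (87.4%), with a longest shared run of 47 bases, and both held a kappa-B match followed by GAANNGAAA, TGACG and CCAAT in the same order. In H2-K1 the kappa-B matches overlapped each other from base 111 to base 101 before the start, and GAANNGAAA stood at bases 90 to 82. The B2m promoter held GAAANNGAA at bases 139 to 131, a kappa-B match, TGACG and CCAAT. In Erap1 the only match was GAAANNGAA, on the reverse strand, in the last 9 bases before the start. The Tap1 window held CCAAT and TGACG, and the Tapbp window, not printed, held CCAAT alone. Among all 32851 promoter windows of the same length, GAAANNGAA was found in 7.13%, GAANNGAAA in 6.31%, TTCNNNGAA in 7.02%, the kappa-B consensus in 7.25%, CCAAT in 33.8% and TGACG in 17.8%. The 6 windows held these in 2, 2, 0, 3, 5 and 4 genes in the same order. A match describes letters only, and no match says nothing about the factor.

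Genotype and array quality were checked first. The share of probes above background ran from 54.8% to 77.7% over the WT arrays and from 44.5% to 61.6% over the Ifnar1-/- arrays (69.5% and 72.5% against 61.6% and 57.1% in untreated cells). Of 3 Ifnar1 probes, 2 gave values in WT (7.88 to 10.23 and 9.94 to 11.88 log2) above all values in Ifnar1-/- (5.82 to 7.35 and 7.29 to 8.73). The brightest Ifnar1 probe overlapped over all treatments, at 9.02 to 14.76 in WT and 11.16 to 12.44 in Ifnar1-/-. In untreated cells it read 14.22 and 14.19 in WT and 11.89 and 11.87 in Ifnar1-/-. Its low WT values came with treatment, such as LPS+zVAD (12.38 and 11.18) and IFNβ+zVAD+Nec-1 (9.02 and 12.73). All 8 macrophage markers were above background on every array. Neutrophil and stromal markers moved with genotype. The summed level of 6 neutrophil genes ran from 13.46 to 15.56 log2 in WT and from 15.56 to 16.73 in Ifnar1-/-. Of these, 5 (S100a8, S100a9, Elane, Camp and Mpo) were above background on all arrays. That of 3 stromal genes ran from 6.93 to 9.31 and from 9.36 to 11.23. The ranges of T cell, B cell, NK cell, dendritic cell and red cell sums overlapped more widely. By median, Ifnar1-/- was higher for NK cell genes (6.39 against 4.91 in WT) and lower for dendritic cell genes (8.34 against 9.54). It was also lower for T cell (10.52 against 10.91), B cell (8.22 against 8.24) and red cell genes (6.46 against 6.54). Many of these genes were near background. Above it on all arrays were 0 of the NK cell, dendritic cell and red cell genes, 1 of 3 T cell genes and 1 of 3 B cell genes. The part of these shares and markers in the differences between genotypes below was not tested. Each slide held the 8 treatments of 1 genotype and 1 replicate number, so genotype and slide cannot be told apart within a treatment. Changes within a genotype could be taken inside a slide, but the main fit held no slide term. Its p-values thus do not use this pairing, and the slide as a replicate block was an alternative.

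IFNβ raised the peptide loading genes and Nlrc5 in WT BMDMs, while no change of the heavy chains or B2m passed the test under quantile scaling. Tap1 rose 12.3-fold, Nlrc5 12.1-fold, Tap2 5.01-fold, Erap1 2.67-fold and Tapbp 2.40-fold. These 5 of 8 genes, all higher, stand against 35.3% of all genes called in either direction and 13.7% called higher. The median log2 change over the 8 genes was 1.34, and over all genes tested it was -0.17.

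Tap1 read 10.25 and 10.68 log2 on the untreated WT arrays and 14.18 and 13.99 with IFNβ. The groups lay far apart on both slides, and the log2 change was 3.62 ± 0.28 (SE, limma adjusted p = 1.84e-08). Nlrc5, the transactivator of the class I genes, read 11.50 and 11.99 untreated and 15.27 and 15.41 with IFNβ, a log2 change of 3.60 ± 0.29 (limma adjusted p = 3.54e-08). A second Nlrc5 probe also rose, by 2.02 ± 0.36 (limma adjusted p = 0.000272). Tap2, the partner of Tap1 in the transporter, went from 13.83 and 13.99 to 16.14 and 16.33. Tapbp went from 14.80 and 14.54 to 15.93 and 15.94, and Erap1 from 7.82 and 7.87 to 9.14 and 9.37. For these 3 genes too every IFNβ array was above both untreated ones, a separation that was not counted over all genes.

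H2-K1 read 17.75 and 17.89 untreated and 17.93 and 18.14 with IFNβ, a log2 change of 0.22 with a 95% interval from -0.18 to 0.61. H2-D1 read 17.76 and 18.19 against 17.62 and 17.91 (log2 change -0.21, 95% interval -0.60 to 0.18), and B2m 17.78 and 17.63 against 17.78 and 17.75 (0.06, -0.28 to 0.40). The second H2-K1 probe changed by 0.28 ± 0.17 (limma adjusted p = 0.226). These 3 main probes ranked between 11 and 630 of 55681 by brightness on every array, and their values depended on the scaling. When arrays were instead shifted so that their 75th percentiles matched, H2-K1 changed by 0.87 (limma adjusted p = 0.0135) and B2m by 0.69 (limma adjusted p = 0.0323), while H2-D1 changed by 0.44 and did not pass; the median of all genes then moved from -0.17 to -0.02. Normexp correction and the authors' own table gave H2-K1 changes of 0.17 and 0.13.

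**Figure D1:**
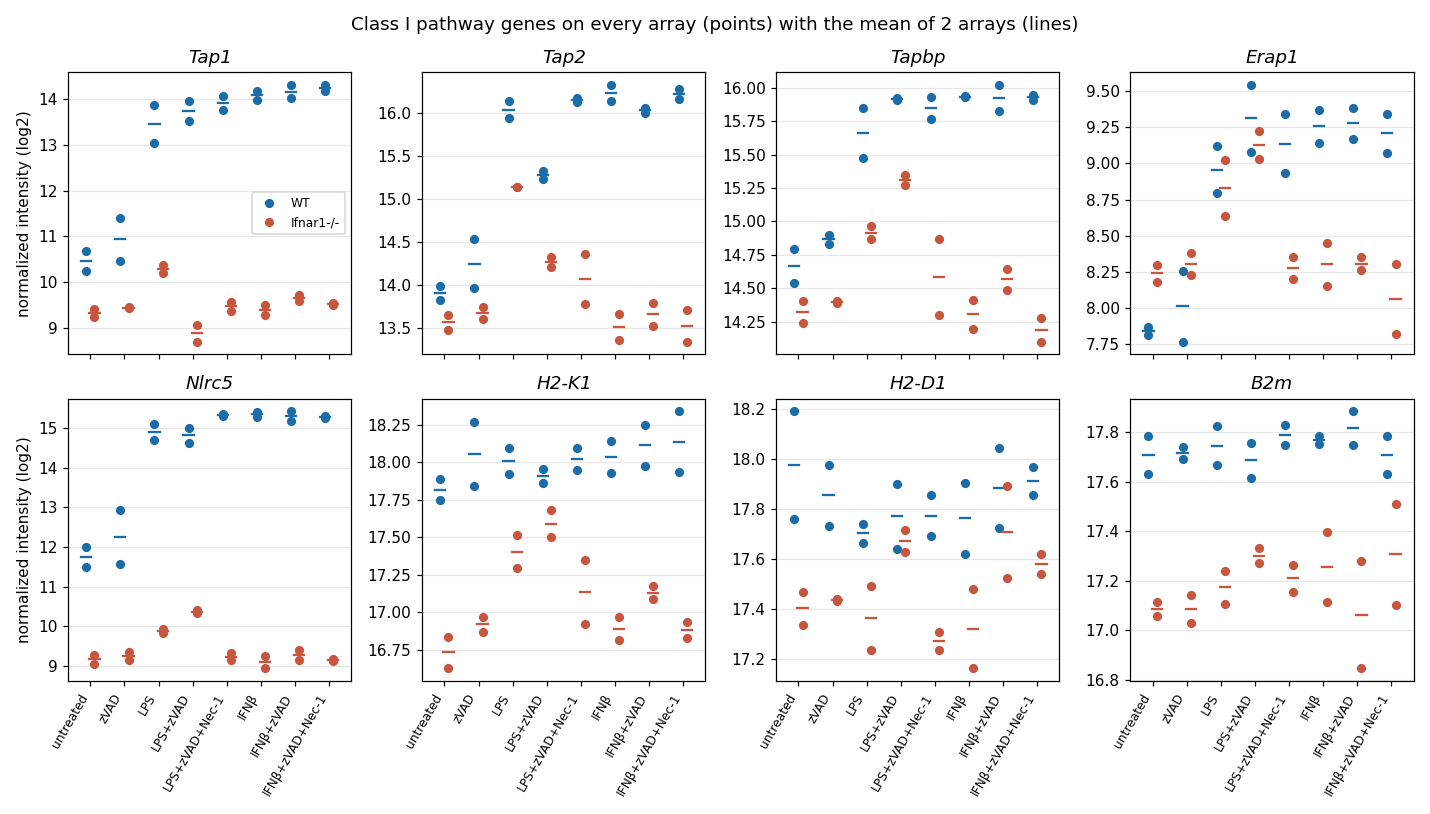
Normalized log2 intensity of the 8 genes (1 panel each, own vertical axis) on each of 32 arrays, by treatment. Blue points are WT arrays, red points Ifnar1-/- arrays, and short lines the mean of 2 arrays. Tap1, Tap2, Nlrc5, Tapbp and Erap1 step up in WT with LPS or IFNβ, whereas the Ifnar1-/- IFNβ points lie near untreated.

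In WT BMDMs LPS raised Tap1, Tap2, Tapbp, Nlrc5 and Erap1 as well, 5 of 8 genes, against 41.2% of all genes called and 16.3% called higher. Nlrc5 rose 8.95-fold, Tap1 7.95-fold, Tap2 4.39-fold, Erap1 2.16-fold and Tapbp 1.99-fold, with a median log2 change of 1.05 over the 8 genes and -0.08 over all genes. On the LPS arrays Nlrc5 read 15.10 and 14.70 and Tap1 13.87 and 13.04, every value above both untreated ones. H2-K1 changed by 0.19, H2-D1 by -0.27 and B2m by 0.04, none past the test. With the 75th percentile shift H2-K1 changed by 0.71 (limma adjusted p = 0.0358), and H2-D1 turned to 0.25 without passing.

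LPS and IFNβ were then compared directly in WT. No difference passed the test (0 of 8 called by limma, and 20.3% of all genes called), and every log2 difference, LPS minus IFNβ, was below 0. Tap1 had the largest, -0.63 (95% interval -1.21 to -0.04, limma adjusted p = 0.126), and Nlrc5 followed at -0.44 (-1.05 to 0.17). At an unadjusted p below 0.05, 1 of the 8 genes, Tap1, differed, beside 5032 of 16033 genes, a larger share. Without WT LPS replicate 1 the test called Tap1 (limma adjusted p = 0.0265). Both comparisons with untreated use the same untreated arrays.

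In Ifnar1-/- BMDMs no change with IFNβ passed the test. The limma test called 0 of 8 genes and 0% of all genes, at an unadjusted p below 0.05 it found 0 of the 8 and 253 of 16033 genes, and the log2 changes ran from -0.08 (H2-D1) to 0.17 (B2m). Tap1 read 9.23 and 9.41 untreated and 9.28 and 9.51 with IFNβ, so the groups overlapped. The change with IFNβ was smaller in Ifnar1-/- than in WT for Nlrc5 (difference of log2 changes -3.67 ± 0.41), Tap1 (-3.55 ± 0.39), Tap2 (-2.38 ± 0.29), Erap1 (-1.35 ± 0.32) and Tapbp (-1.28 ± 0.25), with limma adjusted p from 6.06e-06 to 0.0056. These 5 of 8 stand against 18.8% of all genes called for this difference and 8.54% called lower. For the heavy chains and B2m the difference lay between -0.06 and 0.13.

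LPS raised some of these genes in Ifnar1-/- BMDMs too. There 4 of 8 genes rose, against 24.8% of all genes called and 10.9% called higher, and the median log2 change was 0.63 over the 8 and -0.06 over all genes. Tap2 rose 2.98-fold, from 13.47 and 13.65 untreated to 15.14 and 15.13 (log2 change 1.57 ± 0.20, limma adjusted p = 6.05e-05). Tap1 rose 1.94-fold, from 9.23 and 9.41 to 10.19 and 10.37 (limma adjusted p = 0.0163). H2-K1 rose 1.59-fold, from 16.63 and 16.84 to 17.30 and 17.52 (limma adjusted p = 0.0128), although its second probe changed by only 0.27 (limma adjusted p = 0.305), and Tapbp rose 1.51-fold (limma adjusted p = 0.0176). Nlrc5 changed by 0.70 (limma adjusted p = 0.0902) and Erap1 by 0.59 (limma adjusted p = 0.0635); with the slide as a replicate block both passed, at 0.0433 and 0.00283, and each passed in 1 other alternative (Nlrc5 with only the arrays compared, 0.0335, and Erap1 after the 75th percentile shift, 0.0455). The second Nlrc5 probe changed by -0.08 (limma adjusted p = 0.921). Every LPS array lay above both untreated arrays for these 6 genes, while H2-D1 and B2m overlapped. How many of all genes separate in this way was not counted, so it adds no support for Nlrc5 and Erap1.

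Of these LPS calls in Ifnar1-/-, that of Tap2 held when any single array was left out. That of Tap1 was lost without any of the 4 arrays in turn (limma adjusted p 0.0519 to 0.106), that of H2-K1 without untreated replicate 1 (0.115) or LPS replicate 2 (0.117), and that of Tapbp without untreated replicate 1 (0.129), LPS replicate 1 (0.0595) or LPS replicate 2 (0.109). The Tapbp call was also lost with normexp correction (log2 change 0.52, limma adjusted p = 0.0582) and in the authors' table (0.49, 0.0998).

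The LPS changes of the genotypes were then compared with each other. Nlrc5 differed most, by -2.46 ± 0.41 log2 (3.16 in WT against 0.70 in Ifnar1-/-, limma adjusted p = 0.00114), and Tap1 followed at -2.03 ± 0.39 (limma adjusted p = 0.00345). These 2 of 8, both lower, stand against 6.64% of all genes called and 3.61% called lower. For Tap2 the difference was -0.56 (95% interval -1.17 to 0.05, limma adjusted p = 0.31) beside a WT change of 2.13, and did not pass. Erap1 (-0.52) and Tapbp (-0.40) also missed the threshold, and H2-K1 lay the other way, at 0.48 (95% interval -0.07 to 1.04).

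**Figure D2:**
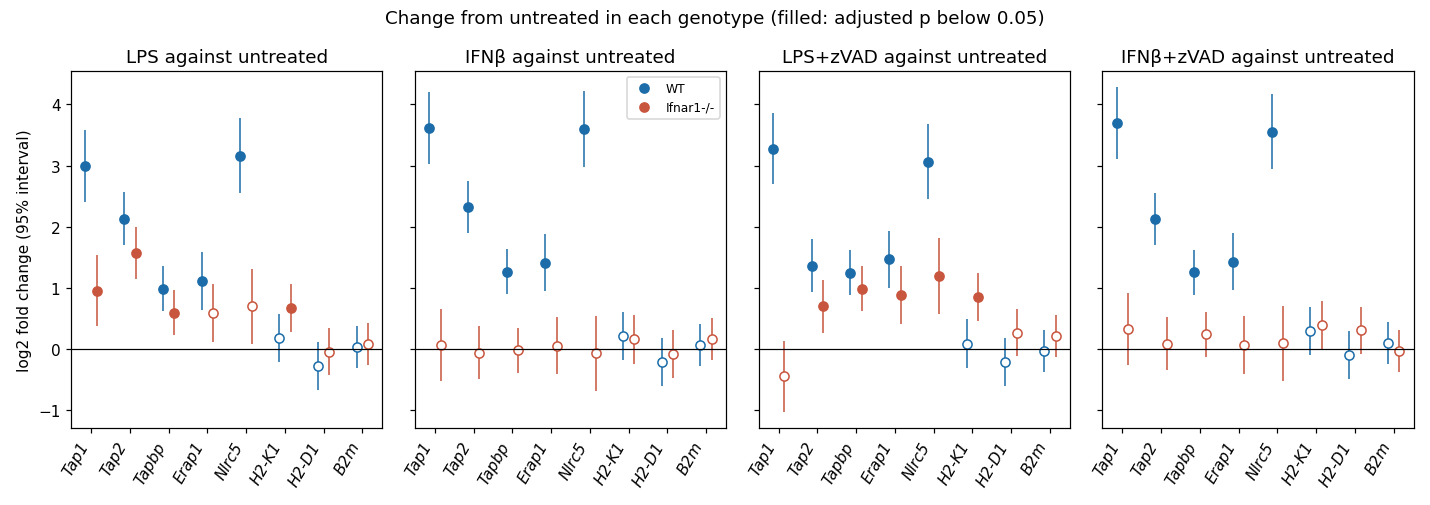
Log2 fold change against untreated, with 95% intervals from the limma fit, for the 8 genes under LPS, IFNβ, LPS+zVAD and IFNβ+zVAD. Blue is WT and red Ifnar1-/-, filled points have an adjusted p below 0.05. Under IFNβ the red points lie near 0 for every gene, and under LPS Tap2 is the gene for which red comes closest to a large blue change.

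The genotypes already differed without stimulation. In untreated cells Nlrc5 was 5.96-fold lower in Ifnar1-/- (9.06 and 9.28 against 11.50 and 11.99 in WT, log2 difference -2.57 ± 0.29, limma adjusted p = 1.13e-05), Tap1 2.21-fold lower (limma adjusted p = 0.0137), H2-K1 2.12-fold lower (16.63 and 16.84 against 17.75 and 17.89, limma adjusted p = 0.000969) and B2m 1.54-fold lower (17.11 and 17.06 against 17.78 and 17.63, limma adjusted p = 0.0211). These 4 of 8 stand against 8.73% of all genes called and 3.35% called lower. The second H2-K1 probe was lower as well, by 0.77 ± 0.17 log2 (limma adjusted p = 0.00791), but the second, dimmer Nlrc5 probe differed by 0.01 ± 0.36. H2-D1 (-0.57, limma adjusted p = 0.0625) passed when the slide was a random replicate block (0.0382) or the prior variance had a trend (0.0293). With only the arrays compared in the fit, B2m (limma adjusted p = 0.103) and Tap1 (0.0614) did not pass. The B2m call was lost without any of the 4 arrays in turn (limma adjusted p 0.0734 to 0.156), with the 75th percentile shift (0.0538) and in the authors' table (0.0542), and the Tap1 call without WT replicate 2 (0.178), Ifnar1-/- replicate 1 (0.111) or Ifnar1-/- replicate 2 (0.0616).

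By their main probes 3 of the 8 genes, H2-K1, B2m and Nlrc5, were lower on each of the 16 Ifnar1-/- arrays than on any of the 16 WT arrays. The same held for 1.54% of all genes with a value on every array. H2-K1 ran from 16.63 to 17.68 in Ifnar1-/- and from 17.75 to 18.34 in WT, B2m from 16.85 to 17.51 and from 17.61 to 17.88, and Nlrc5 from 8.94 to 10.40 and from 11.50 to 15.41. With LPS, the main Nlrc5 probe in Ifnar1-/- (9.92 and 9.82) stayed below untreated WT. The second Nlrc5 probe differed by 0.01 ± 0.36 between the untreated genotypes and changed by -0.08 with LPS in Ifnar1-/-. Tap2 in Ifnar1-/- with LPS (15.14 and 15.13) stood above untreated WT (13.83 and 13.99), and Tap1 (10.19 and 10.37) stood next to it (10.25 and 10.68). H2-D1 overlapped between the genotypes, from 17.16 to 17.89 and from 17.62 to 18.19. Under LPS, 6 of 8 genes were lower in Ifnar1-/- (28.4% of all genes called, 10.1% called lower), and H2-D1 and Erap1 did not pass. Tap1 was 9.04-fold lower and Nlrc5 32.7-fold lower by its main probe. The second Nlrc5 probe gave a smaller log2 difference, -1.95 ± 0.36 (limma adjusted p = 0.000528). With only the arrays compared in the fit, H2-K1 (limma adjusted p = 0.141), B2m (0.145), Tap2 (0.0575) and Tapbp (0.107) did not pass. Without WT LPS replicate 1 the H2-K1 (limma adjusted p = 0.0528), B2m (0.112) and Tapbp (0.0767) calls were lost, H2-K1 also without WT LPS replicate 2 (0.11) or Ifnar1-/- LPS replicate 1 (0.152), and B2m also without the latter (0.0934).

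With zVAD alone no change of the 8 genes passed. The limma test called 0 in WT (0.00624% of all genes called) and 0 in Ifnar1-/- (0%), and no difference of changes passed (0%). At an unadjusted p below 0.05 it found 0 of 8 in either, beside 901 of 16033 genes in WT and 61 in Ifnar1-/-. In WT the largest log2 change was that of Nlrc5, 0.51 ± 0.29, where zVAD replicate 2 read 12.93 and replicate 1 read 11.56, against 11.50 and 11.99 untreated. Tap1 on the same replicate 2 array read 11.40, above its 10.46 on replicate 1. Without WT zVAD replicate 1 the Nlrc5 change passed (limma adjusted p = 0.0402).

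In WT, adding zVAD to LPS lowered Tap2 alone among the 8 genes, fewer calls than the share of all genes. Tap2 read 16.14 and 15.94 with LPS and 15.23 and 15.32 with LPS+zVAD. Its log2 change was -0.77 ± 0.20 (limma adjusted p = 0.00657). It was the only one of the 8 genes to pass, beside 34.6% of all genes called and 21.8% called lower. Erap1 changed by 0.35 (limma adjusted p = 0.254), which passed with the slide as a replicate block (0.043). Nec-1 brought Tap2 back to 16.17 and 16.13, a log2 change of 0.88 ± 0.20 from LPS+zVAD (limma adjusted p = 0.00308). Tap2 was again the only gene of the 8 to pass, beside 28.5% of all genes called and 18.7% called higher. Both changes kept their direction but missed the threshold after the 75th percentile shift (-0.48, limma adjusted p = 0.184, and 0.50, limma adjusted p = 0.187). Both calls were also lost with only the arrays compared in the fit (limma adjusted p = 0.133 and 0.0855). The first was also lost without WT LPS replicate 1 (0.0518).

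In Ifnar1-/- BMDMs zVAD lowered both transporter genes in the presence of LPS. Tap1 fell from 10.19 and 10.37 with LPS to 8.70 and 9.06 with LPS+zVAD, a log2 change of -1.40 ± 0.28 (limma adjusted p = 0.00381), and Tap2 from 15.14 and 15.13 to 14.21 and 14.32, a change of -0.87 ± 0.20 (limma adjusted p = 0.0115). Both LPS+zVAD values of Tap1 were lower than the untreated ones (9.23 and 9.41), and the Tap1 change against untreated was -0.44 ± 0.28 (limma adjusted p = 0.265). These were 2 of 8 called, against 8.25% of all genes called and 3.67% called lower. Nlrc5, at 0.49 (limma adjusted p = 0.367) and 1.07 on its second probe (0.08), passed when its probes were averaged (0.78, 0.0464). The Tap2 call was lost without any of the 4 arrays in turn (limma adjusted p 0.0511 to 0.127) and the Tap1 call without LPS+zVAD replicate 1 (0.0778).

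The same step was compared between the genotypes. In WT Tap1 read 13.87 and 13.04 with LPS and 13.52 and 13.96 with LPS+zVAD, so the groups overlapped, and the change was 0.29 ± 0.28. The change from LPS to LPS+zVAD was lower in Ifnar1-/- than in WT for Tap1 (difference of log2 changes -1.69 ± 0.39, limma adjusted p = 0.023), in a test that was added after seeing the values, and for Tap2 the difference was -0.11 (95% interval -0.71 to 0.50). Of the 8 genes only Tap1 passed that test (3.61% of all genes called), and it missed the threshold when any of 6 of the 8 arrays was left out (limma adjusted p 0.0586 to 0.14).

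Against untreated cells, LPS+zVAD raised 5 of 8 genes in each genotype by the main probes. In WT these were Nlrc5, Tap1, Erap1, Tap2 and Tapbp (51% of all genes called, 18.3% called higher). In Ifnar1-/- they were Nlrc5, Tapbp, Erap1, H2-K1 and Tap2 (28.2% called, 11% called higher). With the 75th percentile shift H2-K1 (0.999, limma adjusted p = 0.00311) and B2m (0.88, limma adjusted p = 0.00444) passed in WT as well. In Ifnar1-/- Nlrc5 went from 9.06 and 9.28 to 10.33 and 10.40 (log2 change 1.20 ± 0.29, limma adjusted p = 0.00503), Tapbp from 14.24 and 14.40 to 15.27 and 15.35 (0.99 ± 0.18, limma adjusted p = 0.000465) and H2-K1 from 16.63 and 16.84 to 17.50 and 17.68 (0.86 ± 0.19, limma adjusted p = 0.00225). The second probes of H2-K1 (0.42 ± 0.17, limma adjusted p = 0.0824) and Nlrc5 (0.99 ± 0.36, limma adjusted p = 0.0505) did not pass. The Tap2 call there was lost without untreated replicate 1 (limma adjusted p = 0.105), LPS+zVAD replicate 1 (0.0554) or LPS+zVAD replicate 2 (0.0885), and the Erap1 call without LPS+zVAD replicate 2 (0.0563).

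The change with LPS+zVAD was smaller in Ifnar1-/- than in WT for Tap1 (-3.72 ± 0.39, limma adjusted p = 1.18e-05) and Nlrc5 (-1.87 ± 0.41, limma adjusted p = 0.00446). Of all genes 16.1% were called and 4.78% called lower. H2-K1 lay the other way, at 0.77 ± 0.27 (limma adjusted p = 0.057), and it passed in 5 of 17 alternatives: with the slide as a replicate block (0.00832), normexp correction (0.0371), a trended prior variance (0.0289), the authors' values (0.0432) and a fit lacking both arrays of LPS+zVAD+Nec-1 in Ifnar1-/- (0.0356). Its second probe read 0.41 ± 0.25 (limma adjusted p = 0.298). Erap1, at -0.58, passed with the block (0.0317), and Tap2, at -0.67, after the 75th percentile shift (0.0354). Between the genotypes under LPS+zVAD 4 of 8 genes, Tap1, Nlrc5, Tap2 and Tapbp, were lower in Ifnar1-/- (37.4% of all genes called, 11.7% called lower). After the 75th percentile shift 7 of 8 were lower, but the share of all genes called lower was not counted under that scaling. B2m (-0.38, limma adjusted p = 0.0733) also passed with normexp correction (0.0443) and a trended prior variance (0.036). With only the arrays compared in the fit, Tapbp did not pass (limma adjusted p = 0.102). The Tapbp call was lost without Ifnar1-/- LPS+zVAD replicate 1 (limma adjusted p = 0.0617).

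**Figure D3:**
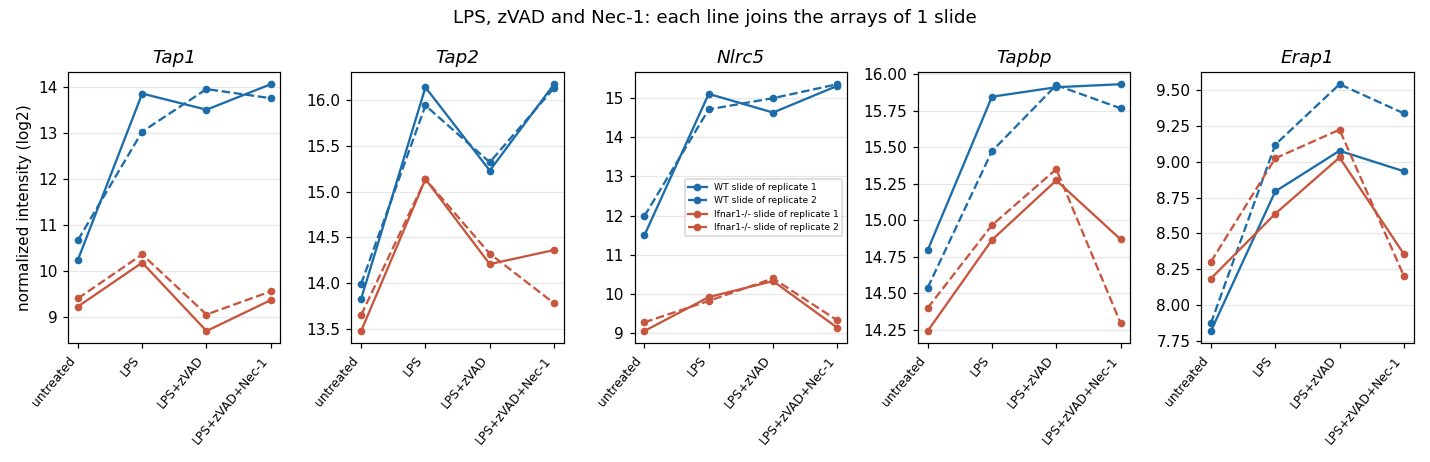
Normalized log2 intensity of Tap1, Tap2, Nlrc5, Tapbp and Erap1 without stimulation, with LPS, with LPS+zVAD and with LPS+zVAD+Nec-1, each panel with its own axis. Each line joins the arrays of 1 slide, blue for WT and red for Ifnar1-/-, solid for replicate 1 and dashed for replicate 2. Tap2 dips with zVAD on all 4 slides and returns with Nec-1 on the WT slides, and Tap1 dips on both Ifnar1-/- slides.

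Nec-1 had another pattern in Ifnar1-/- cells, and not in these genes alone. Against untreated, LPS+zVAD+Nec-1 called 1.32% of all genes there and LPS+zVAD 28.2% (40.9% and 51% in WT). From LPS+zVAD to LPS+zVAD+Nec-1, Nlrc5 fell by 1.13 log2 (10.33 and 10.40 to 9.14 and 9.33, limma adjusted p = 0.0121), Erap1 fell by 0.85 (9.03 and 9.23 to 8.36 and 8.20, limma adjusted p = 0.0135) and Tapbp fell by 0.73 (15.27 and 15.35 to 14.87 and 14.30, limma adjusted p = 0.00803), while Tap2 changed by -0.19 and Tap1 by 0.59 without passing. The second Nlrc5 probe changed by -0.85 ± 0.36 (limma adjusted p = 0.115). These 3 of 8 stand against 18.8% of all genes called and 7.65% called lower. With the slide as a replicate block H2-K1 (-0.46, limma adjusted p = 0.0202) and H2-D1 (-0.40, limma adjusted p = 0.0203) passed too, H2-K1 also after the 75th percentile shift (-0.83, 0.0356). The pair of arrays with Nec-1 and LPS+zVAD in Ifnar1-/- differed from each other, Tap2 reading 14.36 and 13.78 and Tapbp 14.87 and 14.30. Without replicate 2 of that pair Tapbp changed by -0.44 (limma adjusted p = 0.144) and Erap1 by -0.77 (0.0933). Without LPS+zVAD replicate 1 the Nlrc5 (0.07) and Erap1 (0.0546) calls were lost, and without LPS+zVAD replicate 2 all 3 were (0.0568 to 0.0944). In the authors' table Tapbp missed the threshold (limma adjusted p = 0.053).

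The Nec-1 change was lower in Ifnar1-/- than in WT for Nlrc5 (-1.65 ± 0.41, limma adjusted p = 0.0187) and Tap2 (-1.07 ± 0.29, limma adjusted p = 0.0255), in a test added after seeing the values (9.94% of all genes called, 5.98% called lower). The second Nlrc5 probe did not pass (-0.28 ± 0.51, limma adjusted p = 0.812), and on adding Nec-1 in WT the Nlrc5 probes read opposite ways (0.52 and -0.56), neither past the test. Neither call held after the 75th percentile shift (limma adjusted p = 0.0769 and 0.0976). With the slide as a replicate block Tapbp (limma adjusted p = 0.0386) and Erap1 (0.0194) passed as well. The Nlrc5 call was lost when any of 3 arrays was left out (limma adjusted p 0.0515 to 0.0679) and the Tap2 call when any of 7 of the 8 was (0.0532 to 0.128). Against untreated cells LPS+zVAD+Nec-1 raised 5 of 8 genes in WT (40.9% of all genes called, 16% called higher). In Ifnar1-/- the limma test called 0 of 8 (1.32%). At an unadjusted p below 0.05 it found 2 of 8, H2-K1 and Tap2, beside 2053 of 16033 genes.

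No change of these genes with zVAD or Nec-1 passed in the presence of IFNβ. In WT, IFNβ+zVAD and IFNβ+zVAD+Nec-1 each raised the 5 genes that IFNβ raised (37.6% and 31.7% of all genes called, 14.4% and 13.3% called higher). Tap1 read 14.31 and 14.02 and then 14.31 and 14.18. The limma test called 0 of 8 genes between IFNβ and IFNβ+zVAD (0% of all genes, 637 at an unadjusted p below 0.05) and 0 of 8 when Nec-1 was added (0%, 613 at an unadjusted p below 0.05), with 0 of 8 at an unadjusted p below 0.05 in both. In Ifnar1-/- no gene passed against untreated under IFNβ+zVAD (0.00624%) or IFNβ+zVAD+Nec-1 (1.77%), between IFNβ and IFNβ+zVAD (0.00624%) or when Nec-1 was added (1.58%). At an unadjusted p below 0.05 these held H2-K1 (0.40) for IFNβ+zVAD against untreated, beside 585 of 16033 genes. They held Tapbp (-0.38) on adding Nec-1, beside 1593 genes. The change with IFNβ+zVAD was smaller in Ifnar1-/- for Nlrc5 (-3.46), Tap1 (-3.37), Tap2 (-2.03), Erap1 (-1.37) and Tapbp (-1.01), all past the test (19.3% of all genes called, 8.39% called lower).

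**Figure D4:**
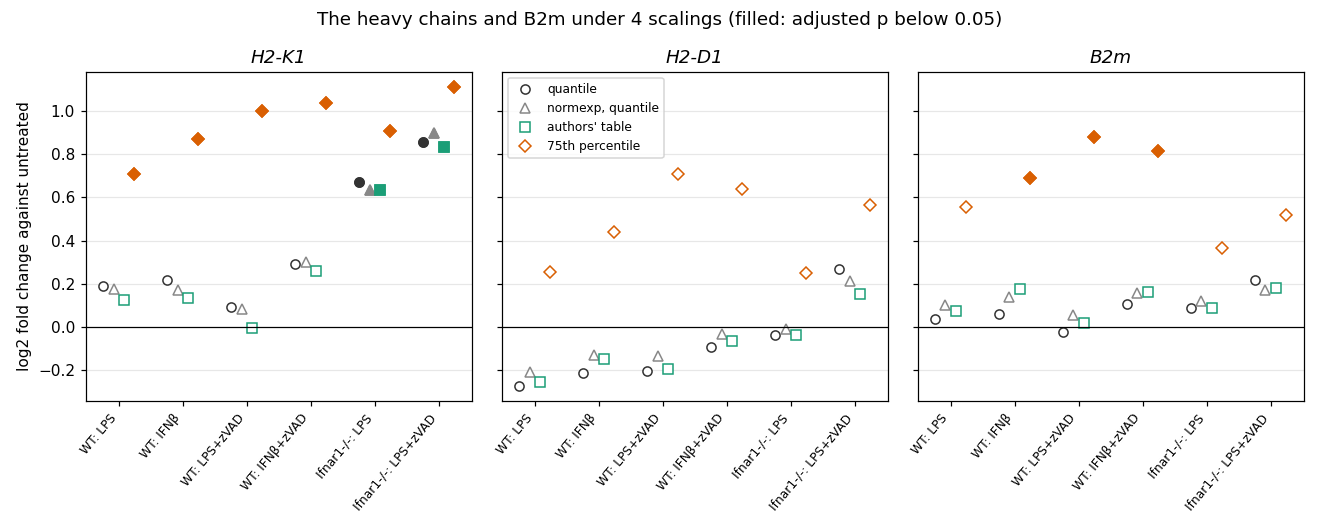
Log2 fold change against untreated of H2-K1, H2-D1 and B2m in 6 comparisons under 4 ways of scaling the arrays: quantile, normexp with quantile, the authors' table, and a shift to a common 75th percentile. Filled symbols have an adjusted p below 0.05. The 75th percentile values lie above the others in every comparison shown, H2-D1 in WT turns from below to above 0 with them, and H2-K1 in Ifnar1-/- with LPS or LPS+zVAD is filled under all 4.

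The other genes of the pathway were counted from 3 lists, with SE after the values where ± stands. Shares of all genes in each direction belong to quantile scaling and were not counted for the shift or the authors' values. Genes called only in Ifnar1-/- are named outside the naming rule, after their values were seen. Of 14 genes of peptide supply and loading 13 were measured, and in WT 9 rose and 0 fell with LPS (all genes 16.3% higher and 24.9% lower) while 8 rose and 1 fell with IFNβ (all genes 13.7% and 21.6%). The list's median log2 change was 1.30 with LPS and 1.47 with IFNβ. The largest IFNβ changes were those of Lnpep (2.65 ± 0.25), a trimming aminopeptidase, Tapbpl (2.62 ± 0.39), a tapasin relative, Psmb9 (2.40 ± 0.30), an immunoproteasome subunit, and Psme3 (1.98 ± 0.37), a proteasome activator, and Canx, the chaperone calnexin, fell by 0.71. With LPS they were Psme3 (2.15), Lnpep (1.98), Psmb8 (1.56) and Psmb9 (1.47). In Ifnar1-/- 4 rose with LPS (all genes 10.9% higher), Tapbpl (1.80), Psmb10 (1.12), Psmb8 (0.96) and Psme1 (0.67), and 0 changed with IFNβ. The difference between genotypes in the IFNβ change passed for 8 lower, Psmb9 (-2.51) and Psmb8 (-1.96) among them, and for 1 higher, Canx (0.78), beside 8.54% and 10.3% of all genes. The authors' values covered 11 of these genes in WT, of which 7 rose with LPS and 7 with IFNβ.

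Of 28 other class I and class I-like heavy chains 20 were measured, and they split. In WT 7 rose and 2 fell with IFNβ (all genes 13.7% higher and 21.6% lower). With LPS 6 rose and 3 fell (all genes 16.3% higher and 24.9% lower). In either direction the 9 called with LPS stand beside 41.2% of all genes called, a share near theirs. The list's median log2 change was 0.31 with IFNβ and 0.06 with LPS. H2-T10 (3.11 ± 0.21), H2-T9 (3.07 ± 0.18), H2-T24 (2.61 ± 0.52) and H2-Q5 (2.60 ± 0.74), nonclassical class I genes, had the largest IFNβ changes, while Mr1, which presents vitamin B metabolites, fell by 1.51 and Fcgrt, the neonatal Fc receptor, fell by 1.07. With LPS Mr1 fell by 3.01, Hfe, an iron-handling relative, fell by 2.46, Fcgrt fell by 1.60 and H2-Q5 rose by 3.10. In Ifnar1-/- LPS raised 3 (H2-Q5 by 3.14) and lowered 6 (all genes 10.9% higher and 13.9% lower), among them Mr1, Hfe and Fcgrt at -2.34, -2.20 and -1.63. For the T region genes H2-T9 and H2-T10 the LPS change was smaller in Ifnar1-/- (difference of log2 changes -2.27 and -2.46, limma adjusted p = 3.36e-05 and 4.04e-05), and these near-identical genes may share signal on the array. In untreated cells 9 of the 20 were lower in Ifnar1-/- and 0 higher, beside 3.35% and 5.38% of all genes. The split moved with scaling: after the 75th percentile shift 11 rose and 0 fell with IFNβ and 9 rose and 3 fell with LPS in WT. In Ifnar1-/- 3 rose and 3 fell with LPS after that shift. The shares of all genes above do not apply to these counts.

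Of regulators of class I genes 15 are reported, all of them measured. In WT 3 rose and 3 fell with IFNβ, with Stat2 (2.99 ± 0.37), Irf1 (2.13 ± 0.34) and Irf2 (2.02 ± 0.18), factors of interferon signalling, as those that rose, and with Rfxap (-2.22) and Rfxank (-1.18), subunits of the factor that binds the X box, and Nfyc (-0.42), a subunit of the factor that binds the Y box, as those that fell. These 3 and 3 of 15 lie near the shares of all genes (13.7% higher and 21.6% lower). With LPS 6 rose, Nfkb1 (2.01) and Stat2 (1.61) foremost, and 3 fell (all genes 16.3% higher and 24.9% lower). The 3 that fell lie near the share of all genes. Ciita, the class II counterpart of Nlrc5, fell by 3.71, with Rfxap and Rfxank at -1.67 and -1.40. In Ifnar1-/- Nfkb1 (2.44), Irf1 (1.78) and Nfyb (0.79) rose and Irf8 fell by 1.40 with LPS (all genes 10.9% higher and 13.9% lower). In untreated Ifnar1-/- cells Irf9 (-2.86), Stat2 (-2.28) and Irf1 (-1.23) were lower than in WT (all genes 3.35% lower). After the 75th percentile shift 4 rose and 2 fell with IFNβ, and 7 rose and 3 fell with LPS in WT. To these counts too the shares of all genes above do not apply.

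**Figure D5:**
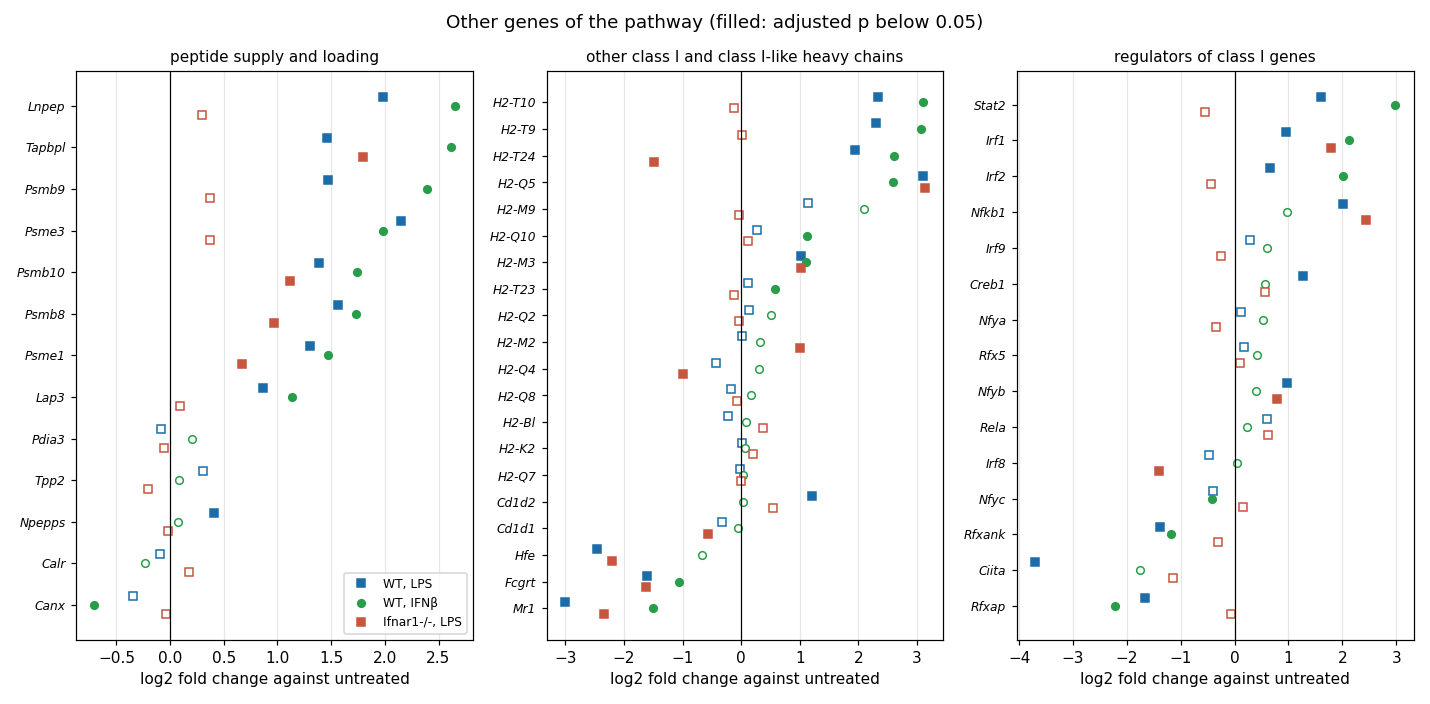
Log2 fold change against untreated of the other measured genes of the pathway, in 3 lists, ordered by their change with IFNβ in WT. Blue squares are WT with LPS, green circles WT with IFNβ and red squares Ifnar1-/- with LPS, filled where the adjusted p is below 0.05. Lnpep and Psmb9 are filled only in WT, while Tapbpl, Psmb8, Psmb10, Psme1, H2-Q5 and Irf1 are among those filled in all 3.

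Across the 16 group means each gene was set beside the average of the other 7, as a description over groups that share slides. Nlrc5 followed that average most closely (r = 0.98), then Tapbp (0.96), Tap1 (0.94), H2-K1 (0.92), Tap2 (0.91) and B2m (0.87), and Erap1 (0.71) and H2-D1 (0.67) least. The genes outside the 8 whose group means were most like the average of the 8 were Ogfr (r = 0.99 over 16 groups and 0.99 over 32 arrays), Samd9l (0.99 and 0.99), Znfx1 (0.99 and 0.98), 2700089E24Rik (0.99 and 0.89) and Zbp1 (0.99 and 0.98).

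The probes lie, on build mm9, at chr17:34133055-34133114 (H2-K1, minus strand), chr17:35403886-35403945 (H2-D1), chr2:121978401-121978460 (B2m), chr17:34330854-34330913 (Tap1), chr17:34353116-34353175 (Tap2), chr17:34065963-34066022 (Tapbp), chr8:97051105-97051164 (Nlrc5) and chr13:74828969-74829028 (Erap1). All but B2m, Nlrc5 and Erap1 thus sit on chromosome 17, within the MHC. H2-K1 and Tap1 were each printed as 10 spots and B2m as 2, and the other genes as 1. An array reads RNA from all cells together, so fewer cells of a type and less RNA per cell cannot be told apart.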

How the data were processed

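RNA from 32 BMDM samples was read on one-colour Agilent arrays. The deposited scanner files give background-subtracted intensity per spot, made by the authors with Agilent Feature Extraction. The authors also deposited a table of quantile-normalized log2 values, and their processing notes name limma. Here log2 intensity was computed without outlier spots, averaged over the spots of a probe and quantile normalized. Probes well above background on at least 50% of arrays were kept (16033 genes, brightest probe per gene). One limma fit (R 4.3.3, limma 3.58.1) of 16 group means, with 16 residual degrees of freedom, gave 33 comparisons, with Benjamini-Hochberg adjustment over all genes and a threshold of 0.05. The script was tested on simulated data.

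Replicate numbers mark slides. Deviations of same-numbered arrays correlated above 0.1 in 28 of 28 pairs of groups in each genotype (r from 0.319 to 0.670 in WT and from 0.169 to 0.575 in Ifnar1-/-), so the slide was tried as a replicate block. The members, lists and naming rule (all members, and of each list the 4 largest changes called in WT with LPS or IFNβ plus those called the other way) were chosen with earlier results of these data known. One gene of the list of regulators is not reported here. Alternatives covered scaling, background, filter, arrays fitted, block, probe choice, prior variance, the authors' values and leaving out each array. Precision is limited by 2 arrays per group.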

Additional observations from a re-analysis of the deposited data

Results flagged for a closer look

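These results are listed because a change from one treatment to another differed between Ifnar1-/- and WT by a test of the difference itself (interaction contrast in limma, adjusted over all genes). All values are the log2 change in Ifnar1-/- minus that in WT, and every one was below 0. For LPS they were -2.03 for Tap1 and -2.46 for Nlrc5. For IFNβ they were -3.55 for Tap1, -3.67 for Nlrc5, -2.38 for Tap2, -1.28 for Tapbp and -1.35 for Erap1. For LPS+zVAD they were -3.72 for Tap1 and -1.87 for Nlrc5. For IFNβ+zVAD they were -3.37 for Tap1, -3.46 for Nlrc5, -2.03 for Tap2, -1.01 for Tapbp and -1.37 for Erap1. For the step from LPS to LPS+zVAD the value was -1.69 for Tap1, and for the step from LPS+zVAD to LPS+zVAD+Nec-1 the values were -1.07 for Tap2 and -1.65 for Nlrc5, in tests chosen after seeing the data. The second Nlrc5 probe gave -0.28 ± 0.51 for the last of these (limma adjusted p = 0.812).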

How the results depend on the processing

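Of 77 calls of a gene in a comparison, 55 held under every alternative, and 983 of 1064 refits stayed past the threshold with no called change reversed. Counts of the 8 genes called moved by over 1.5 times as given next, and smaller moves, of 1 or 2 genes, came with all alternatives but the filter on dim probes. These counts are given without the shares of all genes called under the same alternatives. With the 75th percentile shift they were 0 for LPS+zVAD against LPS and 0 for adding Nec-1 to it in WT, 7 for Ifnar1-/- against WT under LPS+zVAD and 0 for the genotype difference on adding Nec-1. With only the arrays compared in the fit, which leaves fewer samples, they were 0 for the same 2 steps in WT, 0 for adding Nec-1 in Ifnar1-/-, 2 for the genotypes untreated, 2 for the genotypes under LPS and 0 for both genotype differences chosen after seeing the data. With the slide as a replicate block they were 2 for LPS+zVAD against LPS in WT, 5 for adding Nec-1 in Ifnar1-/-, 4 for the genotype difference with LPS+zVAD and 4 for that on adding Nec-1. The block changed no other call than those given with it above. The random block between genotypes was chosen after seeing the data. With the mean of all probes the genotype difference on adding Nec-1 gave 1. The cause was not tested.

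Leaving out 1 array gave 3 to 6 genes for the genotypes under LPS, 2 to 4 untreated, 1 to 4 for LPS in Ifnar1-/-, 3 to 5 for LPS+zVAD, 0 to 2 for LPS+zVAD against LPS, 0 to 4 for adding Nec-1 and 0 to 2 for LPS+zVAD+Nec-1 against untreated there. In WT it gave 0 to 1 for LPS against IFNβ, for LPS+zVAD against LPS and for zVAD. The genotype differences gave 0 to 1 for LPS+zVAD against LPS and 0 to 3 for adding Nec-1. Reversals were seen for uncalled values. With the 75th percentile shift H2-D1 was 0.25 for LPS in WT, 0.44 for IFNβ in WT, 0.25 for LPS in Ifnar1-/-, and -0.0023 and -0.14 for the genotype differences with LPS and LPS+zVAD, where B2m was -0.19 and -0.36. With 1 array left out B2m ran from -0.039 to 0.12 for LPS and from -0.016 to 0.14 for IFNβ in WT and from -0.027 to 0.13 for the LPS difference, and H2-D1 from -0.43 to 0.0024 for IFNβ in WT and from -0.16 to 0.088 for LPS in Ifnar1-/-.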
